A study of Homo sapiens with 8 samples.

Results

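The genes described here are 9 that encode chaperones and folding enzymes of the endoplasmic reticulum (ER) and XBP1, a transcription factor that induces such genes. They were taken by name, and 8 of the 9 stood in the deposited table of 13841 rows, each on a single row. HYOU1, an ER chaperone that helps exchange nucleotide on HSPA5, was not among the rows and was not analysed here. The samples were A549 cells, an established epithelial line derived from a lung adenocarcinoma. All cells had been stretched cyclically for 24 h (15% elongation at 15 cycles per min), cultured for a further 6 days and sorted by their β-galactosidase (Bgal) activity, which the labels take as the mark of senescence. Positive cells, labelled senescent, gave 4 libraries (numbers 1, 3, 4 and 5), and 4 came from negative cells, labelled not senescent (numbers 2, 6, 7 and 8). No agent or genetic change was named for either group, both groups had been stretched, and unstretched cells were not analysed here.

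The ER is the compartment where secreted and membrane proteins fold. When unfolded proteins accumulate there, sensors in its membrane start the unfolded protein response. One of them, encoded by ERN1, cuts XBP1 mRNA so that it can be spliced into the form that encodes the active factor, and another, encoded by ATF6, is itself cleaved to an active factor. Both raise transcription of the chaperone genes, and HSPA5 is the most used marker of the response. In senescent cells, which secrete many proteins, this response is one of the pathways often examined. A count per gene does not part spliced from unspliced XBP1 mRNA, so the values below give the total transcript only.

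Many genes of this group carry an ER stress response element (ERSE) in their promoter, a site where the factor NF-Y and ATF6 or XBP1 bind together. Its letters are CCAAT, then 9 bases of any kind, then CCACG. In the 250 bases upstream of the start in the RefSeq promoter windows (GRCh38.p14), an exact match on either strand was present for 5 of the 8 measured genes. Of 27305 symbols with a window, 25 held a match, or 0.0916%. The 6 matches of these 5 genes are shown with 5 flanking bases on each side, on the strand that reads CCAAT first, with CCAAT and CCACG in capitals. They are printed as a sequence feature of 5 of the 8 genes. The genes were taken by name from a group already known to carry this element. Its frequency among them is therefore not an independent result.

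HSPA5 (chr9:125241386-125241414, minus strand): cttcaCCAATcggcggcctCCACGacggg
HSP90B1, distal (chr12:103930211-103930239, plus strand): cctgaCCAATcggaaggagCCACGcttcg
HSP90B1, proximal (chr12:103930316-103930344, minus strand): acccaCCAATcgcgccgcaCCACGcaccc
PDIA6 (chr2:10812848-10812876, minus strand): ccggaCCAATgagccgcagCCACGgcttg
XBP1 (chr22:28800598-28800626, minus strand): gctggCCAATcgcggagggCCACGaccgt
CALR (chr19:12938379-12938407, minus strand): accgaCCAATgatggtcgaCCACGcgtgg

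The matches of HSPA5, PDIA6 and XBP1 lay in the direction of the gene, from 66, 86 and 52 bases upstream of the RefSeq start. PDIA6 and XBP1 each had a further window, from another RefSeq start, without a match. The PDIA6 and HSP90B1 matches lay within the GENCODE v29 gene spans given below, whose starts differ from the RefSeq ones used here. HSP90B1 had one match in the direction of the gene, from 194 bases upstream, and one on the opposite strand, from 89. That of CALR was on the opposite strand, from 225 bases upstream. SDF2L1 had instead a match to the shorter ERSE-II (ATTGG, 1 base of any kind, then CCACG) on the opposite strand, and this was present in 0.0513% of all 35116 windows. PDIA4 and DNAJB9 had neither run of letters in these windows. The core TGACGTG of a further element bound by XBP1 was in none of the 11 windows of the 8 genes and in 1.68% of all windows. A match is a run of letters and not evidence of binding.

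The HSPA5 promoter is shown whole over 250 bases (chr9:125241344-125241593, minus strand), since HSPA5 is the gene on which the comparison below turns. The letters of the exact ERSE match are again in capitals.

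HSPA5: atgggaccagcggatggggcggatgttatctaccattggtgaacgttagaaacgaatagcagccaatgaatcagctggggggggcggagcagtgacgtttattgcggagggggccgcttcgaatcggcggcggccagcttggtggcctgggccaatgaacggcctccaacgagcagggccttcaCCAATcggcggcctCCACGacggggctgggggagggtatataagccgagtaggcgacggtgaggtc

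This stretch held 4 copies of CCAAT on the 2 strands together, one of them in the exact ERSE match. Runs of letters close to the element but not exact were not searched for, so further copies may be missed. Of its bases 62.0% were G or C, against a median of 58.0% over all windows.

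Expression was measured with an amplicon kit that reads a short stretch of each transcript. Levels are CPM, the counts relative to the TMM-scaled library total, and are compared between libraries, not between genes. Library totals ran from 5634961 to 7990839 counts, and the 8 genes together took 0.125% to 0.222% of them. Positive 1 and negative 2 stood apart from the rest. Their median correlations with the other libraries over all tested genes were 0.938 and 0.924, against 0.964 to 0.972 for the other 6. The epithelial keratins KRT8 and KRT18 were abundant in every library, with at least 3144 and 2850 counts, while the alveolar type 2 surfactant genes SFTPC and SFTPB had at most 3 counts in any library. Of the other alveolar type 2 markers, NAPSA had 2 to 9 counts and ABCA3, a lipid transporter, had 100 to 249, and SFTPA1 was not among the rows. Of the leukocyte, endothelial and fibroblast markers, PTPRC, CD3E, PECAM1, VWF, COL1A2 and PDGFRB were not among the rows. Those that were summed to 24.2 to 42.3, at most 1.21 and 6.26 to 10.8 CPM relative to the unscaled library totals, without TMM scaling. Separate cultures are not named in the labels, so a p-value reflects only how much these libraries vary, and that may be technical. In such bulk RNA, fewer cells with a transcript and less of it per cell cannot be told apart.

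None of the 8 genes passed the test that compares positive with negative cells across the whole table. HSPA5 was the gene with the clearest difference. It was 0.742-fold in the positive cells, and its 4 positive libraries all lay below its 4 negative ones. A log2 fold change of larger size than that of HSPA5 was present in 28.3% of all tested rows. The estimates for HSP90B1, CALR, PDIA6 and PDIA4 were between 0.977-fold and 1.09-fold, and those for XBP1 and DNAJB9 were above 1 (1.28-fold and 1.19-fold) with intervals that spanned no change. All 8 passed the filter on low counts. In edgeR's quasi-likelihood test with Benjamini-Hochberg adjustment over 11351 rows, 0 rows passed an adjusted p of 0.05 (0% of those tested), and the lowest adjusted p was 0.309. DESeq2's Wald test called 52 rows and limma voom 0, with none of the 8 genes among them. Unadjusted, 1631 rows (14.4%) had a p under 0.05, and 1 of the 8 genes did, HSPA5 (all rows: 6.85% lower and 7.52% higher in positive cells). The groups did not overlap for 1 of the 8, against 9.14% of all rows. Both counts are near the background, so they say nothing particular about these genes. The median log2 fold change of the 8 was 0.04, and that of all tested rows was -0.02.

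**Figure D1:**
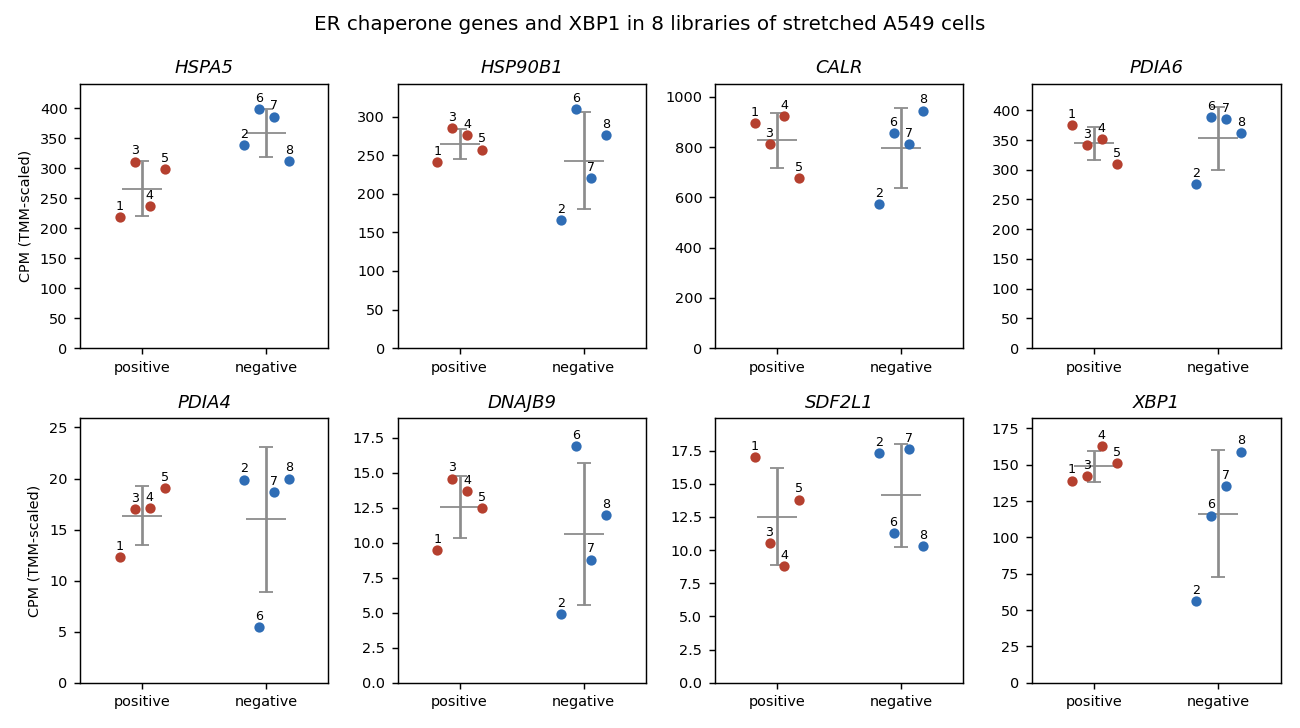
TMM-scaled CPM (vertical axes, each starting at 0) of the 8 measured genes in the 4 positive and 4 negative libraries. Points are single libraries with their number, bars are the mean and SD of the group. Only for HSPA5 do the points of the groups not overlap, and negative 2 is the lowest point for HSP90B1, CALR, PDIA6, DNAJB9 and XBP1.

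HSPA5 (chr9:125234853-125241330 in GENCODE v29, minus strand, protein-coding) encodes BiP, the HSP70 chaperone of the ER that binds nascent chains and holds the stress sensors inactive. It was at 219, 311, 237 and 298 CPM in positive 1, 3, 4 and 5. In negative 2, 6, 7 and 8 it was at 338, 399, 386 and 312 CPM. The groups did not overlap, but the nearest libraries, positive 3 and negative 8, stood at 311 and 312 CPM, and their counting intervals (299 to 324 and 299 to 326, exact Poisson, 95%) overlapped. The means were 266 ± 45.3 and 359 ± 40.6 CPM (SD, n = 4 each). The log2 fold change was -0.43 ± 0.18 (SE), with a 95% interval of -0.81 to -0.05. The unadjusted edgeR p was 0.0295 and the adjusted p was 0.32. An exact two-sided permutation test on log2 CPM gave p = 0.0286, the smallest that 4 against 4 libraries allow. Without negative 2 the log2 fold change was -0.44 (95% interval -0.82 to -0.06, edgeR adjusted p = 0.478), in a comparison where 9.7% of all rows had an unadjusted p under 0.05. Without both positive 1 and negative 2 it was -0.35 (edgeR adjusted p = 0.469).

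DNAJB9 (chr7:108569568-108574850, plus strand) encodes a J-domain co-chaperone that directs HSPA5 to its clients and is a transcriptional target of XBP1. It was at 9.51, 14.6, 13.7 and 12.5 CPM in positive 1, 3, 4 and 5. The negative libraries 2, 6, 7 and 8 were at 4.94, 16.9, 8.80 and 12.0 CPM. Negative cells thus held both the lowest and the highest value, and the lowest, negative 2, rested on 34 counts. The log2 fold change was 0.25 (95% interval -0.46 to 0.95) and the edgeR adjusted p 0.721. It was 0.02 (-0.54 to 0.58) without negative 2 and 0.55 (-0.13 to 1.23) without negative 6.

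SDF2L1 (chr22:21642261-21644298, plus strand) encodes a small ER protein that works with HSPA5 and its J-domain partners against aggregation. It was at 17.0, 10.5, 8.79 and 13.8 CPM in positive 1, 3, 4 and 5, and at 17.3, 11.3, 17.6 and 10.3 CPM in negative 2, 6, 7 and 8. The groups spanned nearly the same range. The log2 fold change was -0.18 (-0.77 to 0.41; edgeR adjusted p 0.756) and -0.05 (-0.65 to 0.54) without negative 2. It was -0.36 (-0.95 to 0.23) without positive 1.

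HSP90B1 (chr12:103930107-103953645, plus strand) encodes GRP94, the HSP90 chaperone of the ER, whose clients include integrins and Toll-like receptors. It was at 241, 285, 276 and 257 CPM in positive 1, 3, 4 and 5. In negative 2, 6, 7 and 8 it was at 166, 310, 220 and 276 CPM. The positive libraries lay inside the range of the negative ones, whose coefficient of variation was 26.1% against 7.47%. The log2 fold change was 0.12 (-0.31 to 0.56; edgeR adjusted p 0.771), -0.01 (-0.36 to 0.35) without negative 2 and 0.26 (-0.19 to 0.71) without negative 6.

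CALR (chr19:12938578-12944489, plus strand) encodes calreticulin, a lectin chaperone that binds calcium and retains glycoproteins until they fold. It was at 895, 811, 922 and 678 CPM in positive 1, 3, 4 and 5, and at 572, 856, 811 and 945 CPM in negative 2, 6, 7 and 8. Each group held a low library, positive 5 and negative 2. For CALR the log2 fold change was 0.05 (-0.36 to 0.47; edgeR adjusted p 0.905). Without negative 2 it was -0.06 (-0.41 to 0.29).

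PDIA6 and PDIA4 encode protein disulfide isomerases, which form and rearrange disulfide bonds in folding proteins, and PDIA6 also acts on the sensor encoded by ERN1. PDIA6 (chr2:10783391-10837977, minus strand) was at 375, 342, 352 and 309 CPM in positive 1, 3, 4 and 5, and at 276, 389, 385 and 361 CPM in negative 2, 6, 7 and 8. It was the steadiest of the 8 genes over all libraries, with a coefficient of variation of 11.2%. Its log2 fold change was -0.03 (-0.40 to 0.33; edgeR adjusted p 0.934), and -0.12 (-0.44 to 0.20) without negative 2.

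PDIA4 (chr7:149003062-149028641, minus strand) was at 12.3, 17.0, 17.1 and 19.1 CPM in positive 1, 3, 4 and 5. The negative libraries 2, 6, 7 and 8 were at 19.9, 5.42, 18.7 and 20 CPM. Negative 6, with 32 counts where the other negative libraries had 121 to 140, lay far below the rest. Its counting interval was 3.70 to 7.65 CPM, and the lowest other library, positive 1, reached down to 9.69. Its log2 fold change was 0.03 (-0.70 to 0.77; edgeR adjusted p 0.971). It was 0.17 (-0.57 to 0.91) without negative 2 and -0.25 without negative 6.

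XBP1 (chr22:28794555-28800597, minus strand) encodes the transcription factor itself and has an ERSE of its own, shown above. It was at 139, 142, 163 and 151 CPM in positive 1, 3, 4 and 5. In negative 2, 6, 7 and 8 it was at 56.4, 115, 135 and 159 CPM. The positive libraries were close together, and negative 8 lay within their range while the other 3 negative libraries lay below it. The means were 149 ± 11 and 116 ± 43.7 CPM (SD, n = 4 each). The log2 fold change was 0.36 (-0.20 to 0.92; edgeR adjusted p 0.507), with an exact two-sided permutation p of 0.171. Without negative 2 it was 0.14 (-0.21 to 0.50), and without both positive 1 and negative 2 it was 0.18 (-0.15 to 0.50). Without negative 8 it was 0.57 (edgeR adjusted p = 0.3).

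**Figure D2:**
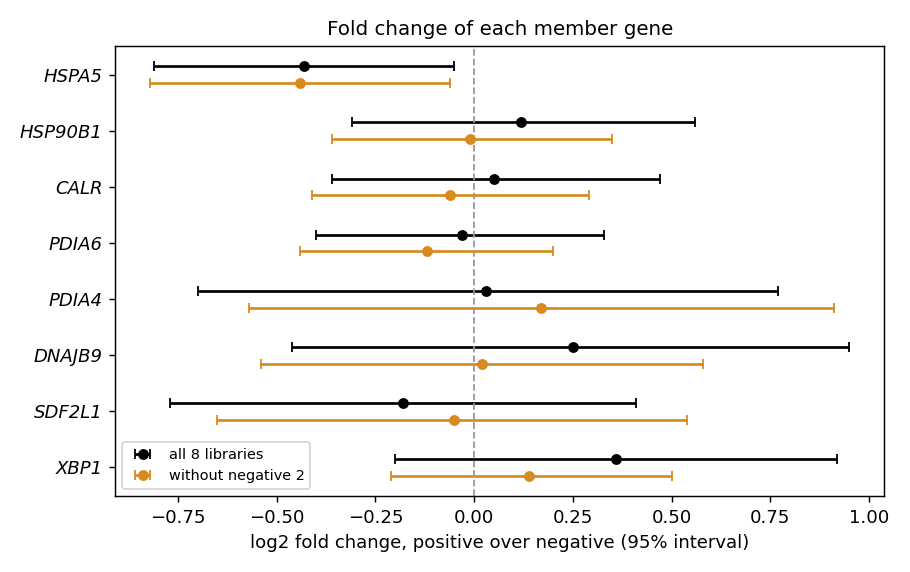
Log2 fold change of positive over negative cells (horizontal axis) for each measured gene, with its 95% interval from edgeR, over all 8 libraries (black) and without negative 2 (orange). Only the intervals of HSPA5 leave out 0, at -0.43 and -0.44, and those of XBP1, HSP90B1 and DNAJB9 are nearer to 0 without negative 2.

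Negative 2 was the lowest of the 8 libraries for 5 of the 8 genes, and on average the 8 genes were 0.34 below their mean over libraries there on the log2 scale. In every other library this average was between -0.03 and 0.12. HSPA5, PDIA4 and SDF2L1 did not share this pattern. In negative 2 PDIA4 and SDF2L1 each had their second highest value, at 19.9 and 17.3 CPM, and HSPA5 was at 338 CPM, with only negative 6 and 7 higher.

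Ratios within a library do not depend on the scaling between libraries, and 5 ratios to HSPA5 were compared. The log2 ratio of HSP90B1 to HSPA5 was 0.14, -0.13, 0.22 and -0.22 in positive 1, 3, 4 and 5. It was -1.03, -0.37, -0.81 and -0.18 in negative 2, 6, 7 and 8. Only negative 8 reached into the positive range, just above positive 5. The difference was 0.60, or 1.52-fold (exact two-sided permutation p = 0.0571; 0.143 after Benjamini-Hochberg adjustment over the 5 ratios). The difference was 0.80 for DNAJB9 (exact p = 0.0571, adjusted 0.143), 0.89 for XBP1 (exact p = 0.0857, adjusted 0.143), 0.51 for CALR (exact p = 0.143, adjusted 0.179) and 0.26 for SDF2L1 (exact p = 0.457). None passed. All 5 ratios share the HSPA5 counts, and HSPA5 had the lowest log2 fold change of the 8 genes (-0.43). Their common sign is expected from that value and is not a repeated observation. Ratios of PDIA4 and PDIA6 were not made. Without negative 2 the differences were 0.46 for HSP90B1, 0.50 for DNAJB9, 0.60 for XBP1, 0.38 for CALR and 0.40 for SDF2L1, and 3 against 4 libraries allow no exact p below 0.0571. SDF2L1 was at 0.01 without positive 1.

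**Figure D3:**
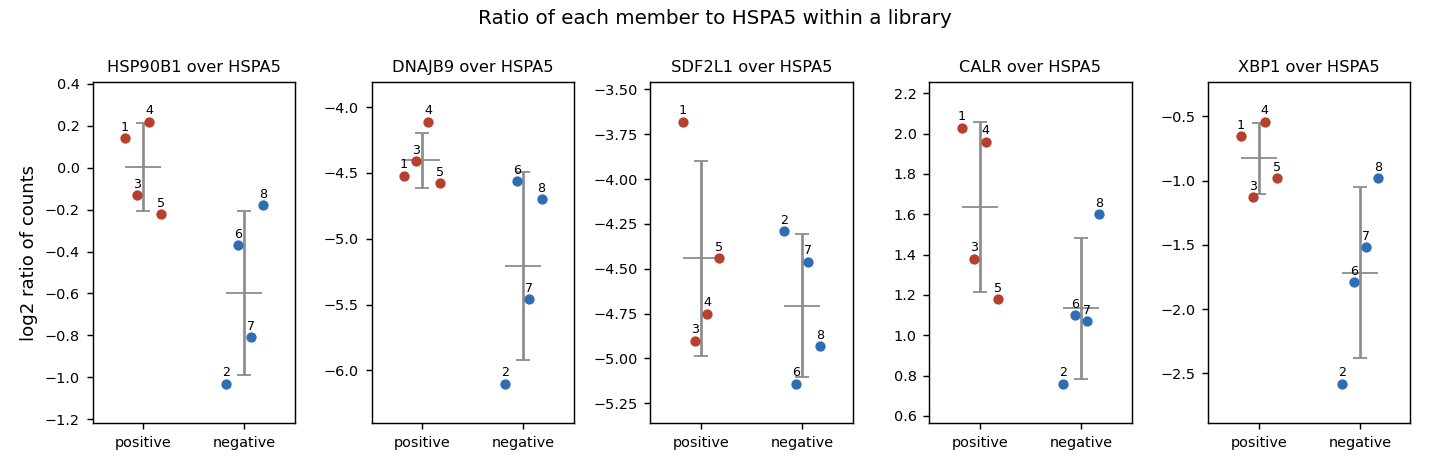
Log2 ratio of the counts of 5 genes to those of HSPA5 within each library (vertical axes, own range for each panel), by group. Points are libraries with their number and bars are the mean and SD. The positive libraries lie higher on average in every panel, with overlap in each, and negative 2 is the lowest point for HSP90B1, DNAJB9, CALR and XBP1.

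The 8 genes did not vary together as one group over the libraries. Of their 28 pairs, 14 had a Pearson r above 0 on log2 CPM over the 8 libraries, and the median r was -0.02. A single pair passed after adjustment over the 28. HSP90B1 and DNAJB9 had r = 0.99 (exact permutation p = 0.000124, adjusted 0.00347) and Spearman's rho of 0.98 (exact permutation p = 0.000397, adjusted 0.0111). The order was shared, with negative 2 lowest and negative 7 and positive 1 next, and negative 6 highest for both. With each group centred on its own mean r was 0.99. Without negative 2 and negative 7, the libraries farthest from the median of HSP90B1, it was 0.94. Without negative 2 and positive 1 it was 0.96. This pair was singled out after its values were seen, although all 28 were computed. An r this high was not particular to the pair. Among 6070 rows with a mean of at least 20 CPM, HSP90B1 ranked 2 for r with DNAJB9, below TBX3 (0.99). GABPA, MTMR12 and MYNN came next at 0.98, 0.97 and 0.97. Those genes were the highest of a search, so a high r is expected for them.

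SDF2L1 ran the other way. Its r was -0.76 with HSP90B1 (exact permutation p = 0.0155, adjusted 0.144) and -0.75 with DNAJB9 (exact p = 0.0208, adjusted 0.145), which did not pass. XBP1 with CALR had r = 0.78, and 0.12 without negative 2. PDIA6 with CALR had r = 0.86, 0.64 without negative 2 and -0.14 without both negative 2 and positive 5, the libraries farthest from the median of PDIA6. HSPA5 had no r beyond 0.36 in size with any of the other 7, and with XBP1 it was -0.36 (exact p = 0.421). These values moved with the libraries that stood apart. With XBP1 r was -0.60 without negative 2 and -0.86 without both negative 2 and positive 1. Without both it was 0.60 with PDIA6 and 0.64 with SDF2L1. Over all 8 libraries, with each group centred on its own mean, r of HSPA5 was 0.02 with XBP1, -0.04 with PDIA6 and -0.05 with SDF2L1.

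**Figure D4:**
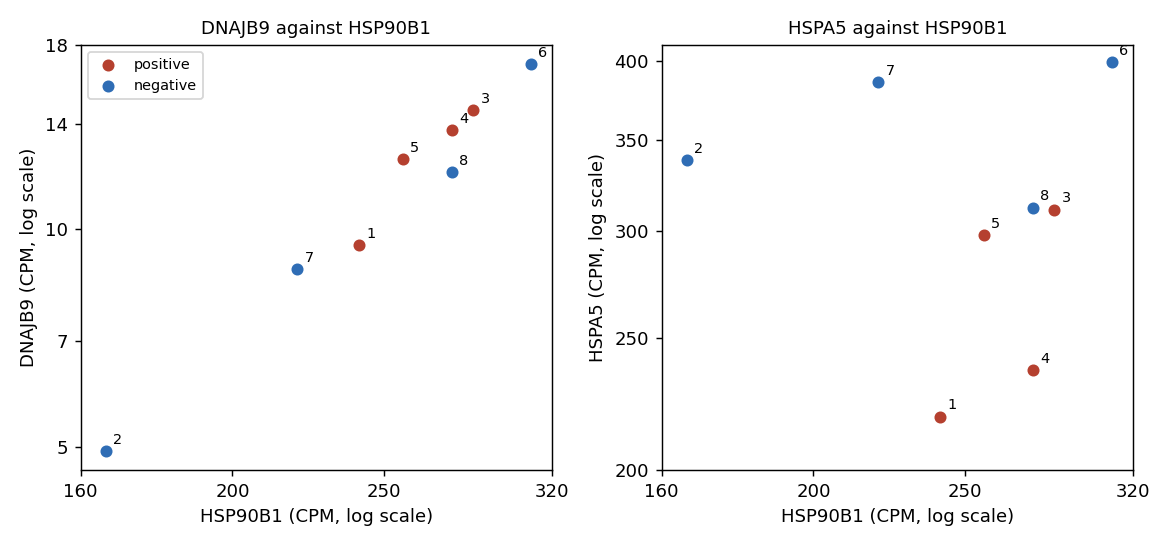
CPM of DNAJB9 (left) and HSPA5 (right) against that of HSP90B1 in the 8 libraries, on log scales, with the library number beside each point. DNAJB9 follows HSP90B1 from negative 2 (166 and 4.94 CPM) to negative 6 (310 and 16.9 CPM) across both groups, while HSPA5 does not, and on the right the positive libraries lie below the negative ones.

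The libraries also differed in how levels varied with transcript length. Over 5807 genes with a mean of at least 20 CPM, the change in log2 CPM per doubling of transcript length, relative to the mean of all libraries, was -0.119 in negative 2, -0.041 in negative 7 and -0.011 in positive 1. It was 0.009 to 0.060 in the other 5 libraries. HSP90B1 and DNAJB9, with longest annotated transcripts of 3032 and 2715 bases, had an r of 0.90 each with this slope (exact permutation p = 0.00811 and 0.0063, both 0.0525 after adjustment over 16 relations). XBP1 (2173 bases) was at 0.89 (exact p = 0.0131, adjusted 0.0525) and SDF2L1, the shortest at 865 bases, at -0.78 (exact p = 0.0108, adjusted 0.0525). Without negative 2 and negative 7 these were 0.24, 0.40, 0.62 and -0.75, so those of HSP90B1 and DNAJB9 rest on these libraries. Spearman's rho was 0.64, 0.69, 0.86 and -0.81 (adjusted exact permutation p = 0.308, 0.308, 0.171 and 0.174). HSPA5, with the longest transcript at 3908 bases, was at -0.36 (exact p = 0.388, rho -0.50). PDIA4 (2903 bases) was at -0.12, PDIA6 (2682 bases) at 0.42 and CALR (1903 bases) at 0.66 (exact permutation p = 0.773, 0.292 and 0.0788). The 16 relations also cover each library's slope with the GC content of the transcript. There the largest r was 0.67, for SDF2L1 (exact permutation p = 0.0768, adjusted 0.21). The part of the length and GC slopes in the values of these genes was not tested.

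Genes whose values ran most like those of HSPA5 over the 8 libraries were ACBD5, WIPF2, RNF113A, TAOK3 and TACC1. Among 6065 rows with a mean of at least 20 CPM they had Pearson r between 0.96 and 0.97 on log2 CPM, and between 0.95 and 0.97 without positive 1 and negative 2. They were picked as the highest of 6065 values over 8 libraries, so a high r is expected from the search. The r without 2 libraries uses part of the same values. They are given only as a description of these libraries. ACBD5, which encodes a peroxisomal membrane protein that tethers peroxisomes to the ER, was at 50.9, 70.7, 53.2 and 68.4 CPM in positive 1, 3, 4 and 5 and at 79.4, 83.3, 77.8 and 70.3 CPM in negative 2, 6, 7 and 8. As with HSPA5, positive 1 and 4 were the lowest of the 8 libraries. The other 7 measured genes were left out of this search, so they could not be among these 5. The highest r with HSPA5 among them was 0.15, for SDF2L1.

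Other ER folding genes had estimates on both sides of 0. Of 35 listed, 33 were tested, 17 with a log2 fold change above 0 and 16 below, with a median of 0.01 (-0.06 without negative 2, 0.11 without negative 8). At an unadjusted p under 0.05 were 1 higher and 1 lower (all rows: 7.52% higher and 6.85% lower). UGGT2, a glucosyltransferase that returns misfolded glycoproteins to the calreticulin cycle, was at 24.4 ± 3.73 in positive and 14.6 ± 3.89 CPM in negative cells (SD, n = 4 each). Its groups did not overlap, and the log2 fold change was 0.74 (edgeR adjusted p 0.309). PDIA5, another disulfide isomerase, was at 0.33 (0.20 without positive 1), CNPY2 at -0.55 (-0.34 without negative 2) and TXNDC11 at -0.40 (-0.25 without positive 1). In these 4 genes the edgeR adjusted p was at least 0.309.

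Of the genes for ER-associated degradation, which returns misfolded proteins to the cytosol for the proteasome, 25 of 29 were tested, 10 above 0 and 15 below, with a median of -0.14 (-0.02 without positive 1). At an unadjusted p under 0.05 were 2 higher and 4 lower (all rows: 7.52% higher and 6.85% lower). UBE2G2, a ubiquitin-conjugating enzyme of this pathway, was at 57.1 ± 15.1 and 38.0 ± 4.68 CPM in positive and negative cells (log2 fold change 0.59; edgeR adjusted p 0.312). EDEM1, a mannosidase-like protein and XBP1 target, was at 131 ± 17.2 and 99.3 ± 19.3 CPM (0.40; edgeR adjusted p 0.345). The ubiquitin ligase gene RNF5 was at -0.83 (-0.60 without negative 2) and SELK, also called SELENOK, at -0.64 (edgeR adjusted p 0.309 and 0.312). None of these passed.

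Of the sensors of the response and the proteases and ligase that act with them, 10 of 12 listed genes were tested on 11 rows. Log2 fold changes were above 0 for 3 rows and below for 8, with a median of -0.28. At an unadjusted p under 0.05 was 1 row, which was lower (all rows: 6.85% lower). The median was -0.11 without positive 1, which had the lowest mean log2 CPM of the list (5.07, against 5.49 to 5.72 in the other libraries). The gene under 0.05 was RTCB, the ligase that joins the XBP1 exons after the cut, at 59.7 ± 9.07 in positive and 76.7 ± 1.73 CPM in negative cells, without overlap (log2 fold change -0.36; edgeR adjusted p 0.339). It was -0.36 without negative 2 too. ERN1, the kinase and nuclease that makes the cut, was at 8.22 ± 3.11 and 6.23 ± 2.01 CPM (0.39, 95% interval -0.32 to 1.10), at 0.12 without positive 1 and at -0.04 without both that library and negative 2. CREB3 was at -0.59 and -0.30 without negative 2. ATF6B stood on 2 rows that differed in sign, 0.37 for ATF6B_row1 and -0.33 for ATF6B_row2, and without positive 1 they were at -0.07 and 0.03. Its value is uncertain, since reads may be divided between the rows.

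Listed for the arm of the sensor encoded by EIF2AK3 (PERK) were 12 genes, not all of them induced only through it, and 11 were tested. DDIT3 was among the rows but was removed by the filter on low counts. Of the 11 tested genes, 5 had a log2 fold change above 0 and 6 below. Their median was -0.05. With each library left out it lay between -0.15 (without negative 2) and 0.17 (without negative 8). ATF3, a stress-induced transcription factor, was the 1 at an unadjusted p under 0.05 (all rows: 7.52% higher). Its log2 fold change was 1.69 (edgeR adjusted p 0.309), and 0.57 without positive 1. PPP1R15B was at 0.41 (0.20 with 1 library left out), ATF4 at -0.30 (-0.11 without positive 1) and TRIB3 at -0.24 (-0.04 without positive 1).

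For entry into the ER, 25 of 26 genes of the translocon, signal peptidase and oligosaccharyl transferase were tested, 5 above 0 and 20 below. Their median was -0.13, with 0 higher and 3 lower at an unadjusted p under 0.05 (all rows: 7.52% higher and 6.85% lower). The translocon component SEC62 was at 77.4 ± 6.28 in positive and 107 ± 7.91 CPM in negative cells, without overlap (log2 fold change -0.46; edgeR adjusted p 0.309), and between -0.51 and -0.40 with each library left out. The signal peptidase subunit SPCS1 was at -0.82 (-0.58 without negative 2), the oligosaccharyl transferase subunit STT3B at 0.41 (0.23 without negative 2) and SSR2 at 0.13 (0.02 to 0.29 with each library left out). Positive 1 had the lowest mean log2 CPM of these genes, 6.60, against 6.99 to 7.12 in the other libraries, and without it the median was -0.06. It was -0.21 without positive 4.

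For exit from the ER and retrieval to it, 20 of 22 genes were tested, 6 above 0 and 14 below. Their median was -0.09 (-0.05 without positive 5), with 1 higher and 2 lower at an unadjusted p under 0.05 (all rows: 7.52% higher and 6.85% lower). SEC16A, which organises ER exit sites, was at 33.8 ± 6.83 in positive and 54.4 ± 10.7 CPM in negative cells without overlap (-0.69; edgeR adjusted p 0.309). SEC22B was at -0.60, and the coat subunits SEC23A and SEC24B were at 0.54 and 0.51 (0.37 for SEC23A without positive 1, 0.27 for SEC24B without negative 2).

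Heat shock genes of other compartments are the counterpart of the ER chaperones. Of 14 listed, 12 were tested on 13 rows, 3 above 0 and 10 below, with a median of -0.34. At an unadjusted p under 0.05 were 0 higher and 4 lower (all rows: 7.52% higher and 6.85% lower). The median was -0.17 without negative 2 and -0.54 without positive 1, the libraries with the highest mean log2 CPM of these genes (8.59 and 8.27, against 7.64 to 8.08). HSPE1 and HSPD1, the chaperonins of mitochondria, were at -1.08 and -0.48 (edgeR adjusted p 0.309 and 0.312), and HSPE1 was at -0.48 without negative 2. BAG3 was at 0.14, with values of -0.10 to 0.24 as each library was left out. HSPA1A stood on 2 rows, at -0.12 and 0.84 for HSPA1A_row1 and HSPA1A_row2, and is uncertain because HSPA1B is a near-identical copy. None of the genes in these 7 lists passed the adjusted threshold.

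**Figure D5:**
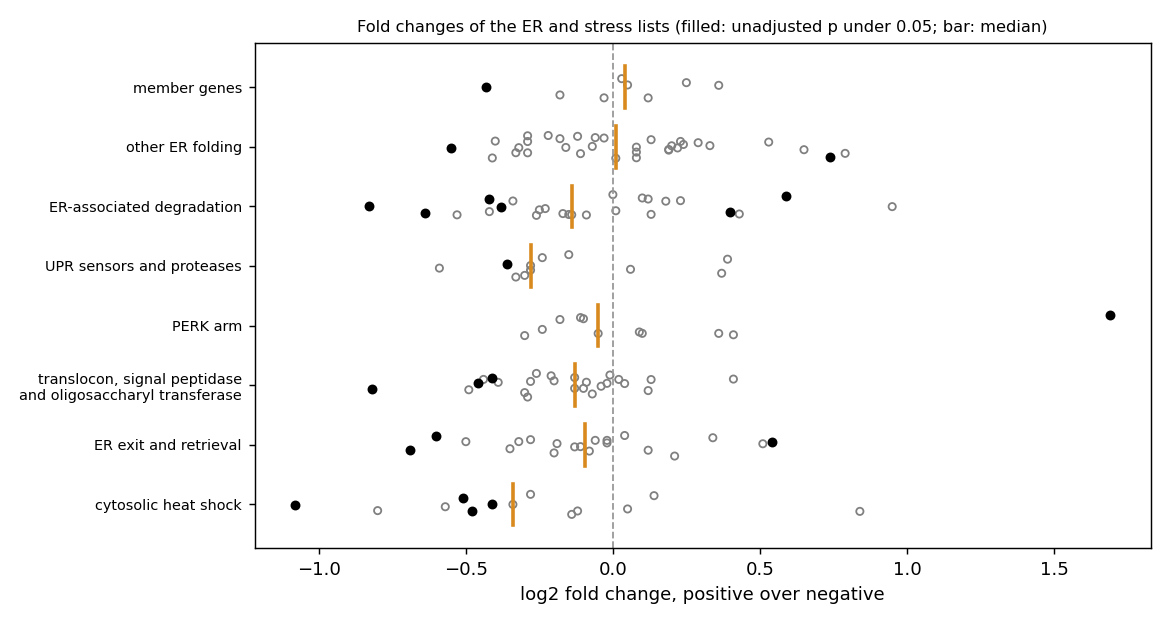
Log2 fold change (horizontal axis) of every tested row of the 8 measured genes and of 7 lists of ER and stress genes. Filled points have an unadjusted edgeR p under 0.05, and orange bars are list medians. The medians lie between -0.34 and 0.04, and each list holds values on both sides of 0.

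Apart from the 5 genes with an ERSE described above, 8 other tested genes held one in their windows. Of these, 6 had a log2 fold change above 0 and 2 below, with a median of 0.08. At an unadjusted p under 0.05 were 2 (all rows: 14.4%). Those 2 were SERP1, which encodes a small protein associated with the translocon (-0.48), and TRIM5 (-0.67), at edgeR adjusted p of 0.312 and 0.323. FICD, an ER enzyme that inactivates HSPA5 by attaching AMP to it, was at 0.51 (edgeR adjusted p 0.372), and CANX and CRELD2 were at 0.08 each. Genes with the element thus stood on both sides of 0, with HSPA5 at -0.43 and XBP1 at 0.36 among them.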

How the data were processed

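Total RNA of 8 libraries was read with an Ion Torrent amplicon kit, per the labels' protocols. The tools fastp 0.20.1 and Salmon 1.9 and the build GRCh38 are named, per the submitters' processing notes. No transcript annotation or row filter was given in the sources used here. As deposited by the authors, each value is an estimated count, a whole number not scaled for depth. No pair of libraries of a group agreed within sampling noise (chi-square per degree of freedom at least 8.44).

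All rows were tested together. filterByExpr (minimum count 10) left 11351 rows and removed 2490, and edgeR 4.0.16 (R 4.3.3; TMM, robust quasi-likelihood test) compared the groups (Benjamini-Hochberg adjustment, threshold 0.05). Log2 CPM used a prior count of 2. The exact permutation test covered all 70 assignments of 4 against 4 libraries, and correlations all 40320 pairings. Count intervals are exact Poisson ones and cover counting error only, since amplicon reads carry no molecular identifiers. The group comparisons by edgeR, DESeq2 and limma were tested on simulated data. The permutation tests, correlations, length and GC slopes and motif search were not.

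Alternatives were other scalings and filters, DESeq2 1.42.0, limma 3.58.1 (voom with sample weights), robust estimation off, summed rows of 1 symbol and left-out libraries. The members and lists were chosen with earlier results of these data known. Named genes are the members, the 2 genes of smallest p in each direction of each list and the 5 most like HSPA5. Genes with an ERSE and those most like DNAJB9 were named after their values were seen. Gene coordinates are from GENCODE v29, promoter windows (250 bases upstream) from RefSeq (GRCh38.p14), and all 8 measured genes had at least 1 window. Transcript length and GC content are those of the longest GENCODE transcript, not of the amplicon.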

Additional observations from a re-analysis of the deposited data

Results flagged for a closer look

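PDIA4 in negative 6, at 5.42 CPM (32 counts), lay far from the other negative libraries, which were at 18.7 to 20 CPM. The gap to the nearest was 0.912 of the range of the group, above Dixon's 95% critical value for 4 samples. In all 26 groups of values were examined this way, and chance alone flags about 1 in 20. HSPA5, PDIA6, HSP90B1 and DNAJB9 were each at their highest in the same library (399, 389, 310 and 16.9 CPM), so the low value was not shared by these genes.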

How the results depend on the processing

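No paired analysis was made, because the labels name no pairs of libraries. Each library number was used in 1 group only, which does not show whether positive and negative cells came from the same culture. No measured member passed the adjusted threshold under any of the 18 alternatives. HSPA5 stayed below 0 in all of them, between -0.52 and -0.35 with each library left out and between -0.44 and -0.31 under the others. Its unadjusted p was above 0.05 in 6 of the 18, so the count of members under 0.05 was 0 with upper quartile scaling and with library totals, and 0 to 1 with each library left out (0 without positive 1, positive 4, negative 6 or negative 7). Genes called over the whole table numbered 52 with DESeq2's Wald test, and 0 to 1 with each library left out. Several estimates near 0 changed sign. PDIA6 was at 0.03 (upper quartile), 0.07 (library totals) and 0.02 (at least 50 counts in 4 libraries), and -0.12 to 0.01 with each library left out. CALR was at -0.08 (limma voom), -0.10 (without both positive 1 and negative 2) and -0.06 to 0.17. HSP90B1 ran from -0.01 to 0.26 and PDIA4 from -0.25 to 0.19 with each library left out. The median of the degradation list, -0.14, was -0.08 (upper quartile), -0.04 (library totals), -0.06 (limma voom) and -0.05 (without both libraries), and -0.19 to -0.02 with each library left out. That of the exit list was 0.02 with library totals. Library totals moved the median of all genes from -0.02 to 0.10. The cause of these changes was not tested. Low counts limit DNAJB9, SDF2L1 and PDIA4, at 32 to 146 counts per library.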
